A study of Danio rerio with 12 samples.

Results

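The tmem176 genes of the zebrafish were followed across 12 whole-embryo RNA libraries. All rows whose gene symbol begins with tmem176 were taken, which gave 6 of the 31465 genes in the deposited table: tmem176 (ENSDARG00000078659), tmem176l.1 (ENSDARG00000099491), tmem176l.2 (ENSDARG00000089399), tmem176l.3a (ENSDARG00000098387), tmem176l.3b (ENSDARG00000096874) and tmem176l.4 (ENSDARG00000074390). All 6 passed the filter on low counts. The family was chosen by the measured genotype differences of tmem176l.2 and tmem176l.3a, which were large at different ages, so the genotype values of its members are given below as a description, with no test.

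The study set wild-type embryos of strain AB beside embryos labelled mycn mutant, and both were taken at an age of 48 or 72 hpf (hours post fertilization), with 3 libraries in each of the 4 groups. All embryos were raised in 0.3X Danieau buffer, and the labels name no treatment. These sources give neither the mutant allele and its zygosity nor its background strain. Nor do they say if embryos were pooled or came from different clutches, so p-values measure the spread between these libraries, which may be technical. The labelled tissue, embryonic cells, names no single cell type, and genes of gut, liver, blood, kidney and skin were all counted.

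TMEM176 proteins are small proteins that cross the membrane several times and resemble the MS4A family, to which the B cell antigen CD20 belongs. In mammals, TMEM176A and TMEM176B are known from dendritic cells, macrophages and some lymphocytes, where they sit mainly in membranes inside the cell. The roles of the separate zebrafish copies are not stated in the files, and none is assumed here.

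Library totals ran from 14793715 to 19732340 counts. A count of 3 in a single library was worth 0.151 to 0.216 CPM (counts scaled to library size with edgeR's TMM factors). mycn itself was higher in the mutant-labelled libraries at both ages, at 203 to 251 against 60.8 to 90.1 CPM at 48 hpf and 141 to 158 against 75.6 to 79.8 CPM at 72 hpf. Because this goes against the loss of a transcript, every direction below rests on the labels. In RefSeq's gene table, none of the 6 members lay on the chromosome of mycn.

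tmem176l.3a held its high level in 1 group only, the wild-type embryos at 48 hpf. Wild-type replicates 1 to 3 at 48 hpf stood at 23.4, 17.8 and 25.6 CPM, and the mutant-labelled ones at 6.33, 5.54 and 5.29 CPM. At 72 hpf the wild-type libraries stood at 6.06, 5.82 and 7.37 CPM and the mutant-labelled ones at 6.56, 6.92 and 6.37 CPM. Every wild-type library at 48 hpf was above every other library, and the remaining 9 libraries lay together between 5.29 and 7.37 CPM. The 48 hpf means were 22.3 ± 4.02 CPM for wild type and 5.72 ± 0.540 CPM for mutant-labelled embryos (SD, n = 3 each), a 3.90-fold lower level in the latter. The log2 fold change of mutant-labelled over wild type was -1.96 (SE 0.16) at 48 hpf and 0.04 (SE 0.16) at 72 hpf. In bulk RNA, fewer cells of a type and less RNA per cell cannot be told apart.

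tmem176l.2 had the opposite timing: it had low counts at 48 hpf and higher ones at 72 hpf, at a lower level in the mutant-labelled embryos. At 72 hpf wild-type replicates 1 to 3 stood at 14.4, 10.6 and 11.4 CPM and the mutant-labelled ones at 4.18, 3.51 and 3.30 CPM. The groups did not overlap, and the lowest wild-type library was well above the highest mutant-labelled one. The means were 12.1 ± 2.01 and 3.67 ± 0.458 CPM (SD, n = 3 each), 3.30-fold lower in mutant-labelled embryos, with a log2 fold change of -1.72 (SE 0.24). At 48 hpf single libraries held between 3 and 19 counts of tmem176l.2, which came to 0.551, 0.456 and 1.12 CPM among the wild-type replicates, against 0.759, 0.216 and 0.548 CPM. These groups overlapped. From 35 wild-type and 24 mutant-labelled counts, the ratio of mutant-labelled to wild type was 0.723, with an exact 95% counting interval of 0.412 to 1.25, so no difference was detectable at this depth. The log2 fold change was -0.46 (SE 0.44), and it ran from -0.85 without mutant-labelled 48 hpf replicate 1 to 0.05 without wild-type 48 hpf replicate 3. Such intervals cover counting error only.

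**Figure D1:**
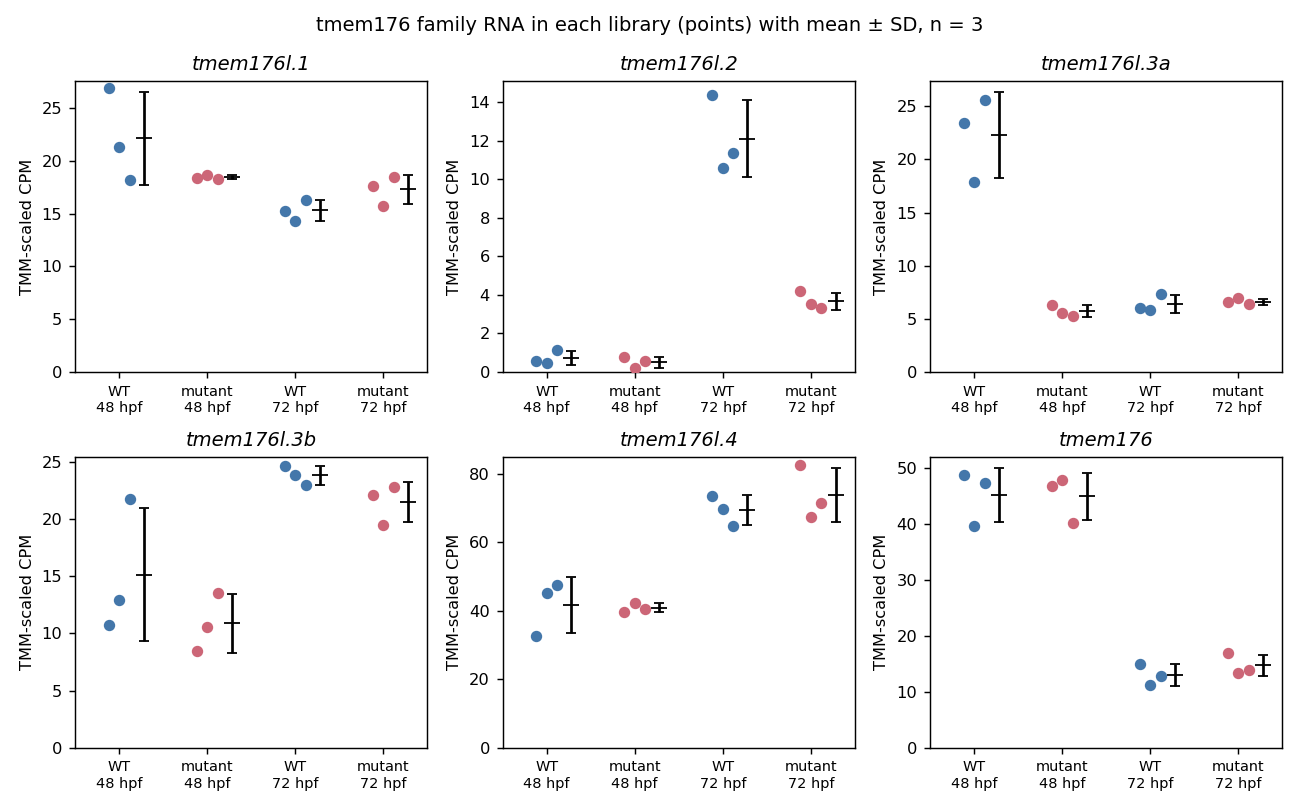
TMM-scaled CPM of each tmem176 gene in every library, by group (WT, wild type; mutant, labelled mycn mutant), with the mean and SD over 3 libraries beside the points; each panel has its own vertical scale starting at 0. tmem176l.3a is high only in wild-type libraries at 48 hpf (17.8 to 25.6 CPM), while tmem176l.2 is highest in wild-type libraries at 72 hpf (10.6 to 14.4 CPM).

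The other members differed less between the genotypes. tmem176, the copy with no number after its name, stood at 48.8, 39.7 and 47.4 CPM in wild-type and at 46.9, 48.0 and 40.2 CPM in mutant-labelled replicates at 48 hpf. At 72 hpf it stood at 15.0, 11.1 and 12.9 CPM against 16.9, 13.4 and 13.9 CPM. The genotypes overlapped at both ages, with log2 fold changes of -0.01 (SE 0.12) and 0.18 (SE 0.14).

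tmem176l.4 stood at 32.5, 45.1 and 47.5 CPM in wild-type and at 39.7, 42.3 and 40.6 CPM in mutant-labelled replicates at 48 hpf. At 72 hpf it stood at 73.6, 69.8 and 64.9 CPM against 82.5, 67.5 and 71.3 CPM. Here too the genotypes overlapped at both ages, with log2 fold changes of -0.03 (SE 0.13) and 0.09 (SE 0.12).

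tmem176l.1 stood at 26.9, 21.3 and 18.2 CPM in wild-type replicates at 48 hpf, and the mutant-labelled libraries lay close together at 18.4, 18.7 and 18.3 CPM. At 72 hpf it stood at 15.3, 14.3 and 16.3 CPM against 17.7, 15.7 and 18.5 CPM. The log2 fold change was -0.26 (SE 0.13) at 48 hpf, running from -0.37 without wild-type replicate 3 of that age to -0.09 without its replicate 1, and 0.17 (SE 0.13) at 72 hpf. The groups overlapped at both ages.

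tmem176l.3b stood at 10.8, 12.9 and 21.8 CPM in wild-type replicates at 48 hpf, with replicate 3 above the others, against 8.48, 10.6 and 13.6 CPM in mutant-labelled libraries. At 72 hpf it stood at 24.6, 23.9 and 23.0 CPM against 22.1, 19.5 and 22.8 CPM. The groups overlapped at 48 hpf. At 72 hpf they did not, although the lowest wild-type and the highest mutant-labelled library lay side by side at 23.0 and 22.8 CPM. The log2 fold change was -0.48 (SE 0.21) at 48 hpf, running from -0.68 without wild-type replicate 1 of that age to -0.11 without its replicate 3, and -0.15 (SE 0.20) at 72 hpf.

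**Figure D2:**
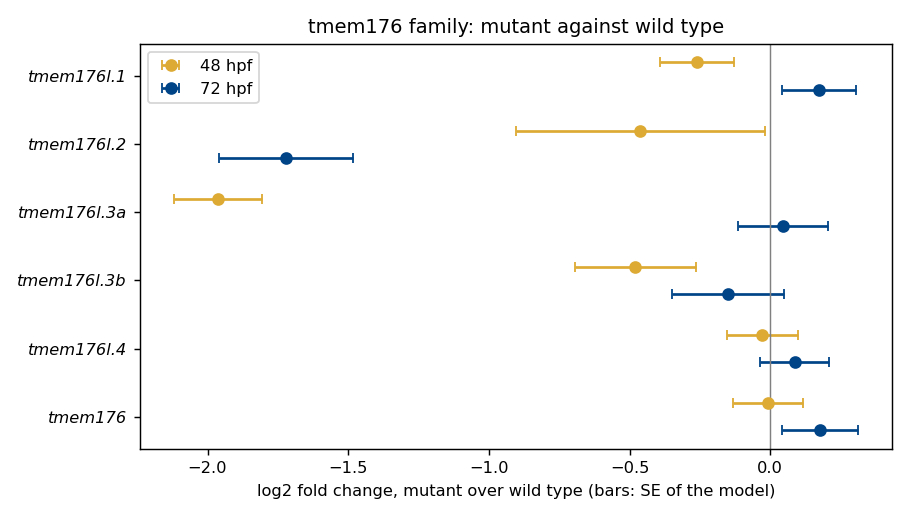
Log2 fold change of mutant-labelled over wild-type embryos for each tmem176 gene at 48 hpf (yellow) and 72 hpf (blue), with the SE of the edgeR model. tmem176l.3a stands at -1.96 at 48 hpf and near 0 at 72 hpf, and tmem176l.2 stands at -1.72 at 72 hpf; the other members lie between -0.48 and 0.18.

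In all, the genotypes' libraries did not overlap for 1 of the 6 members at 48 hpf (tmem176l.3a), where 16.8% of the 21068 tested genes did not overlap (9.08% lower and 7.69% higher). At 72 hpf this held for 2 of 6 (tmem176l.2 and tmem176l.3b), against 20.1% of all genes (9.14% lower and 11% higher). Across all tested genes edgeR called 641 changed at 48 hpf (3.04%), with 219 higher and 422 lower, and 117 at 72 hpf (0.555%). With library totals in place of TMM factors the split at 48 hpf was 453 higher and 287 lower. By size of the log2 fold change, tmem176l.3a ranked at place 306 of 21068 at 48 hpf and tmem176l.2 at place 51 at 72 hpf. Since these contrasts chose the family, nothing is read from these counts and ranks.

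Reads of similar copies may be divided between rows, and these sources do not say how the authors' counting treated reads that match several copies. The counts of the 6 genes were therefore also added. At 48 hpf the sum stood at 143, 137 and 162 CPM in wild-type and at 121, 125 and 119 CPM in mutant-labelled replicates, with no overlap. At 72 hpf it stood at 149, 136 and 136 CPM against 150, 127 and 136 CPM, with full overlap. Among single tested genes 9.08% were lower without overlap at 48 hpf. With tmem176l.3a left out, the 48 hpf sums overlapped, at 119.4 to 135.9 CPM in wild-type and 113.3 to 119.7 CPM in mutant-labelled libraries.

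The difference of the means, mutant-labelled minus wild type, was -25.8 CPM for the sum at 48 hpf and -9.18 CPM with tmem176l.3a left out. At that age it was -16.6 CPM for tmem176l.3a alone, and it was between -4.28 and -0.201 CPM for the other 5 members. Whether reads were divided between copies was not tested. At 72 hpf it was -8.44 CPM for tmem176l.2 and 5.88 CPM for the other 5 together. tmem176l.4 was higher by 4.34 CPM, tmem176l.1 by 1.98 CPM and tmem176 by 1.71 CPM at that age, each with overlapping libraries. The difference was 0.197 CPM for tmem176l.3a, with overlap, and -2.34 CPM for tmem176l.3b, without overlap. With tmem176l.2 left out, the 72 hpf sums overlapped, at 124.4 to 134.5 CPM in wild-type and 123.0 to 145.6 CPM in mutant-labelled libraries.

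A gene's share of the family's counts within a library does not depend on library scaling. tmem176l.3a took 16.4%, 13.0% and 15.9% of the family's counts in wild-type replicates at 48 hpf, against 5.25%, 4.42% and 4.46% in mutant-labelled ones. tmem176l.2 took 9.66%, 7.81% and 8.36% in wild-type replicates at 72 hpf, against 2.79%, 2.77% and 2.43%. These shares come from the same counts that chose the family and are a description only.

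**Figure D3:**
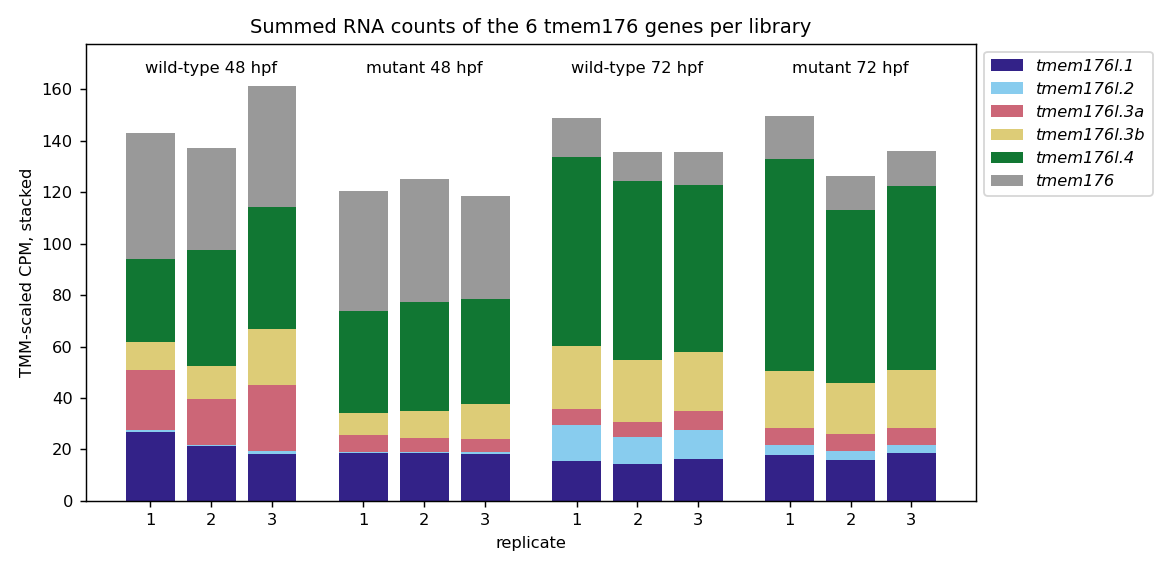
TMM-scaled CPM of the 6 tmem176 genes stacked for each of the 12 libraries, by group and replicate. The mutant-labelled libraries at 48 hpf reach 119 to 125 CPM against 137 to 162 CPM in wild type; heights of different genes are not corrected for transcript length and are not to be compared with each other.

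The change with age was tested as the mean of the 72 against 48 hpf effects of both genotypes. The weights of this contrast are orthogonal to those of the genotype effects that chose the family. The groups differed in spread and in counts, however, so its estimates need not be independent of that choice. Of the 6 members 3 rose and 3 fell with age by edgeR (quasi-likelihood, Benjamini-Hochberg adjusted over all tested genes). Over all tested genes 78.7% were called, 39.3% higher and 39.4% lower. The count over the 6 members is a description only. It includes tmem176l.2 and tmem176l.3a, whose p-values are set aside below. The rises were those of tmem176l.2, by 3.44 on the log2 scale (SE 0.23, adjusted p = 5.26e-10), tmem176l.3b, by 0.81 (SE 0.15, adjusted p = 8.42e-05), and tmem176l.4, by 0.79 (SE 0.09, adjusted p = 3.89e-07). tmem176l.2 held 3 to 19 counts a library at 48 hpf and passed the filter only through the age at which it was high. Its p-value is therefore not read as support, and with no filter its rise was also 3.44. The falls were those of tmem176, by 1.70 (SE 0.09, adjusted p = 5.29e-11), and tmem176l.3a, by 0.79 (SE 0.11, adjusted p = 6.48e-06). tmem176l.1 fell by 0.31 (SE 0.09, adjusted p = 0.00563), and its direction turned with library totals alone. The change of tmem176l.3a was -1.80 in wild-type and 0.21 in mutant-labelled embryos. It rested on the high wild-type libraries at 48 hpf, which also set its genotype difference. Its p-value is therefore not read as a fall in both genotypes.

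Scaling mattered for this contrast. With library totals alone the median of all genes moved from 0.00 to 0.37 on the log2 scale, and the calls split into 11079 higher and 5560 lower in place of 8278 and 8310. tmem176l.1 then had a log2 fold change of 0.07 (adjusted p = 0.527), which lay 0.31 below that median as before, and the other 5 members kept their direction and their call.

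Within each genotype the direction of most members was the same, given here as values because these contrasts share libraries with the ones that chose the family. The mean of tmem176 was 3.48-fold lower at 72 than at 48 hpf in wild-type and 3.06-fold lower in mutant-labelled embryos. tmem176l.4 was 1.67-fold and 1.81-fold higher at 72 hpf, and tmem176l.3b 1.57-fold and 1.98-fold higher. tmem176l.2 was 17.1-fold higher at 72 hpf in wild-type and 7.22-fold higher in mutant-labelled embryos, from the low counts given above. In each of these cases the libraries of the ages did not overlap.

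tmem176l.3a was the exception in direction. Its mean was 3.47-fold lower at 72 than at 48 hpf in wild-type embryos but 1.16-fold higher in mutant-labelled ones, where the libraries of the ages lay side by side (6.33 CPM at most at 48 hpf and 6.37 CPM at least at 72 hpf). Its fall in the averaged test is therefore that of the wild type. tmem176l.1 was 1.45-fold lower at 72 hpf in wild-type embryos without overlap, and 1.07-fold lower in mutant-labelled ones with overlap. Over all genes edgeR called the difference of the genotype effects between the ages (72 minus 48 hpf) in 0.47%, with 0.285% higher and 0.185% lower. It was 2.01 on the log2 scale for tmem176l.3a (SE 0.22) and -1.26 for tmem176l.2 (SE 0.52).

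**Figure D4:**
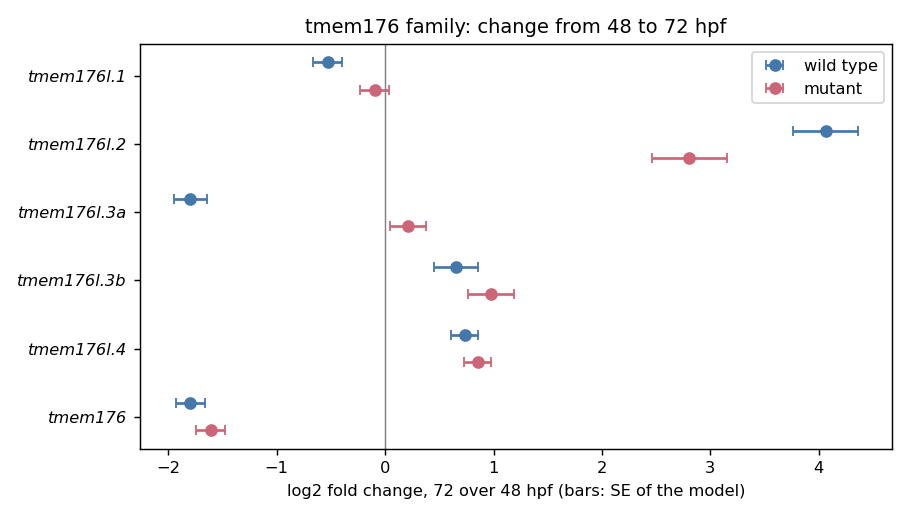
Log2 fold change of 72 over 48 hpf for each tmem176 gene in wild-type (blue) and mutant-labelled (red) embryos, with the SE of the edgeR model. For tmem176l.3a the value is negative in wild type and slightly positive in mutant-labelled embryos, while for the other members both genotypes lie on the same side of 0.

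In RefSeq's gene table for the assembly GRCz12tu, which is not the authors' build, tmem176l.3a, tmem176l.2 and tmem176l.4 stood directly next to each other in this order. tmem176l.1 lay on the same stretch, with 9 annotated entries between it and tmem176l.3a, while tmem176 and tmem176l.3b each stood elsewhere. The neighbouring members tmem176l.3a and tmem176l.2 stood at -1.96 and -0.46 on the log2 scale at 48 hpf and at 0.04 and -1.72 at 72 hpf, and tmem176l.4 beside them near 0 at both ages.

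The 3 annotated entries on each side of the members gave 24 neighbours, of which 15 symbols were found in the count table, on 16 rows, and 15 rows were tested. The entry pth1b matched a pair of these rows, 1 of which the count table names pth2. At 48 hpf 2 of these 15 fell and 0 rose, against a background of 2% lower and 1.04% higher. At 72 hpf 0 passed edgeR's test, DESeq2's or limma-voom's. Unadjusted in edgeR (p under 0.05), 1 was higher and 1 lower at 72 hpf. For unadjusted counts, here and below, the share of all tested genes is not given, so nothing is read from them. tcirg1a, a subunit gene of the vacuolar proton pump that is annotated near tmem176, had 48 hpf means of 12.2 ± 1.39 CPM for wild type and 4.98 ± 0.919 CPM for mutant-labelled embryos (SD, n = 3 each; log2 fold change -1.29, SE 0.15, edgeR adjusted p = 2.20e-04). Its 72 hpf means were 14.4 ± 0.248 and 12.3 ± 0.807 CPM (edgeR adjusted p = 0.783). si:dkey-9i23.15, directly next to tmem176, stood at 16.8 ± 2.06 and 11.4 ± 1.37 CPM at 48 hpf (log2 fold change -0.55, SE 0.14, edgeR adjusted p = 0.0406). Its call was lost in 10 of the 12 fits that left out a library (all but those without wild-type replicate 1 or mutant-labelled replicate 3 of 48 hpf) and with library totals. Next to tmem176l.4, the ubiquilin gene ubqln4 and the lysosomal Ragulator subunit gene lamtor2 had log2 fold changes of 0.14 (SE 0.09) and 0.02 (SE 0.11) at 48 hpf, and 0.05 (SE 0.09) and -0.10 (SE 0.12) at 72 hpf. The next gene, rab25b, which encodes a Rab GTPase of epithelial recycling endosomes, stood at -0.35 (SE 0.23; edgeR adjusted p = 0.491) and -0.75 (SE 0.28; adjusted p = 0.437).

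**Figure D5:**
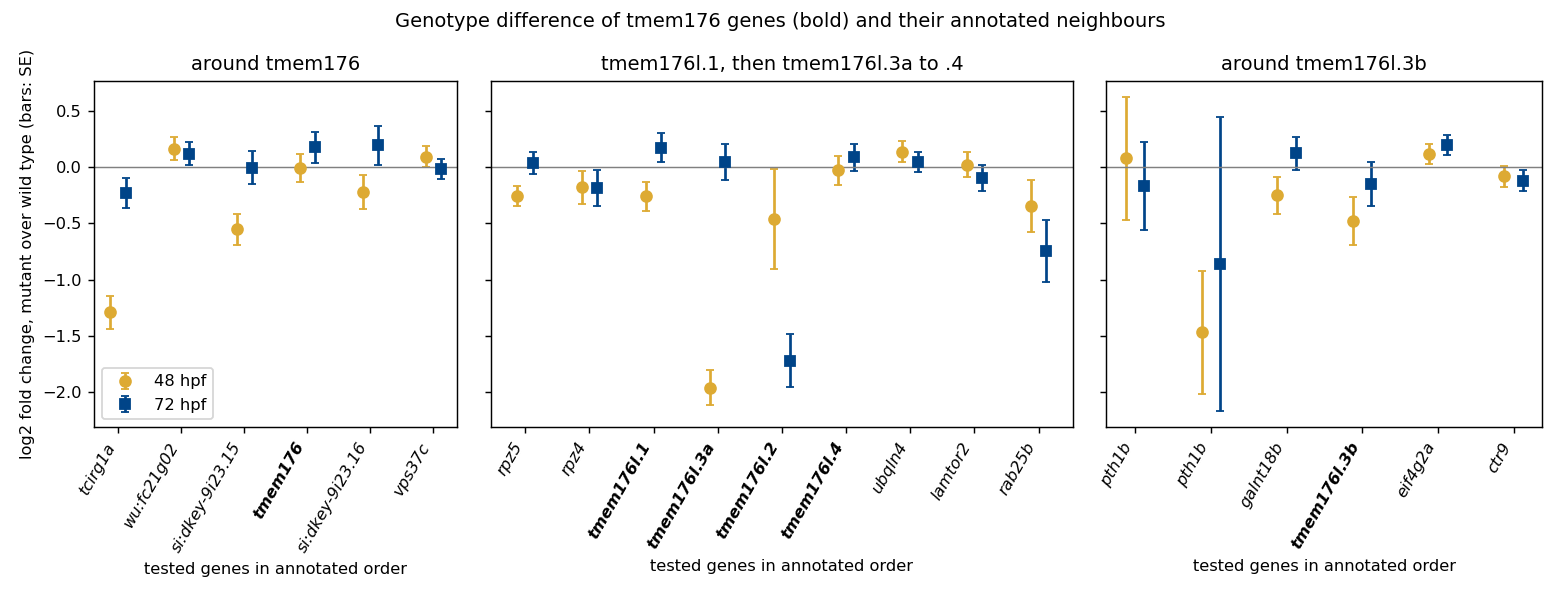
Log2 fold change of mutant-labelled over wild-type embryos, with the SE of the edgeR model, at 48 hpf (circles) and 72 hpf (squares) for the tmem176 genes (bold) and the tested neighbours in annotated order; spacing is by order, and untested entries are left out. In the middle panel tmem176l.3a at 48 hpf and tmem176l.2 at 72 hpf stand lowest, rab25b stands at -0.75 at 72 hpf, and ubqln4 and lamtor2 lie within 0.14 of 0; in the right panel pth1b appears at both rows matched to it.

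The genes whose pattern was most like that of tmem176l.2 were found by the root mean square difference of log2 CPM, centred per gene, over the 12 libraries. The nearest 5 were CR762483.1, slc10a2, enpep, anpepa and AL929536.3, at 0.41 to 0.47 on the log2 scale, against a median of 1.84 over all tested genes. slc10a2 encodes the bile acid transporter of the ileum, and enpep and anpepa encode aminopeptidases of brush border membranes. In wild-type and mutant-labelled embryos respectively, slc10a2 went from 0.426 ± 0.192 and 0.238 ± 0.0697 CPM at 48 hpf to 5.73 ± 1.07 and 2.68 ± 0.505 CPM at 72 hpf. enpep went from 1.90 ± 0.502 and 1.52 ± 0.476 CPM to 20.9 ± 1.70 and 11.2 ± 0.562 CPM. anpepa went from 0.589 ± 0.383 and 0.446 ± 0.160 CPM to 6.62 ± 0.707 and 3.21 ± 0.126 CPM (SD, n = 3 throughout). All 3 had libraries at 72 hpf that were lower in the mutant-labelled group without overlap, as had 9.14% of all tested genes. Of the 3, edgeR called enpep lower at 72 hpf but not slc10a2 or anpepa. As they were chosen for their likeness to tmem176l.2, this is a description.

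For tmem176l.3a the nearest 5 were si:dkey-7j22.4, zgc:165518, tnfaip2b, epdl1 and acot16, at 0.30 to 0.37 against a median of 0.90. tnfaip2b, a relative of the TNF-induced gene TNFAIP2, had means of 12.9 ± 1.47 CPM (wild type) and 4.65 ± 1.28 CPM (mutant-labelled) at 48 hpf, and of 5.11 ± 1.62 and 4.73 ± 0.344 CPM at 72 hpf. epdl1, an ependymin-like gene, stood at 52.3 ± 15.8 and 15.3 ± 5.48 CPM, then at 21.4 ± 4.79 and 23.6 ± 6.12 CPM. acot16, an acyl-CoA thioesterase gene, stood at 14.1 ± 3.60 and 4.42 ± 2.15 CPM, then at 3.82 ± 0.630 and 4.16 ± 0.609 CPM (SD, n = 3 throughout). Each was high in wild-type embryos at 48 hpf and lower in the other 3 groups. They were chosen for their likeness to tmem176l.3a, so this too is a description. si:dkey-7j22.4 rested on 44 counts or fewer per group.

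Within the family, the pattern nearest to tmem176l.3a was that of tmem176l.1, at 0.67, which ranked at place 1521 of all tested genes. The nearest to tmem176l.2 was that of tmem176l.3b, at 1.41 and place 4414. Both lay below the medians of 0.90 and 1.84 over all genes. tmem176l.2 and tmem176l.3a were 2.24 apart.

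Among the related ms4a genes, calls by genotype depended on the tool and setting. Of 17 rows with such a symbol 12 were tested, and edgeR called 0 of them at 48 and 0 at 72 hpf. With no adjustment (p under 0.05), 3 were higher at 48 hpf, and 1 was higher and 2 lower at 72 hpf. DESeq2 called 0 at 48 hpf and 2 lower at 72 hpf, and limma-voom 0 and 1 lower. In edgeR 1 was lower at 72 hpf with library totals and with no filter, 2 with only the 6 libraries of that age, and 1 or 2 without any 1 of the wild-type 48 hpf libraries. Their median log2 fold change was 0.47 at 48 hpf and 0.07 at 72 hpf, against medians of 0.00 and 0.01 over all tested genes. Their summed level at 48 hpf was 51.4 to 62.2 CPM in wild-type and 65.8 to 74.0 CPM in mutant-labelled libraries, without overlap, and it overlapped at 72 hpf. Among single tested genes 7.69% were higher without overlap at 48 hpf. In the averaged age contrast 8 of the 12 rose and 1 fell, against the background given above.

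Single markers of the blood cells in which the mammalian genes are known were mostly not called. Of 25 tested macrophage and dendritic cell markers edgeR called 0 at either age. Unadjusted (p under 0.05), 5 were lower and 1 higher at 48 hpf, and 1 lower and 4 higher at 72 hpf. As above, no share of all tested genes stands beside such unadjusted counts, and nothing is read from them. DESeq2 called 0 at both ages and limma-voom 1 lower at 48 hpf. The summed level of the list was 1879 to 3031 CPM in wild-type and 2362 to 3648 CPM in mutant-labelled libraries at 48 hpf, and 520 to 594 against 685 to 729 CPM at 72 hpf. The groups overlapped at 48 hpf, while at 72 hpf every mutant-labelled library was above every wild-type one. Among single tested genes 11% were higher without overlap at 72 hpf. Such a sum is led by its most abundant genes. The list's median log2 fold change was -0.16 at 48 hpf and 0.15 at 72 hpf, with 16 and 9 of 25 below 0. The part of these markers in the level of the tmem176 genes was not tested. Of 11 tested lymphoid and innate lymphoid markers 0 were called by edgeR, DESeq2 or limma-voom, and unadjusted 1 was lower at 48 hpf and 0 at 72 hpf. Of 16 neutrophil markers edgeR called 1 higher at 48 hpf, mmp9, against 1.04% of all tested genes. The call of mmp9 was lost without mutant-labelled 48 hpf replicate 1 or 2. At 72 hpf edgeR called 0 of the 16, while 3 were lower unadjusted (p under 0.05) and DESeq2 and limma-voom each called 1 lower.

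Some markers of gut epithelium fell at 72 hpf, the age at which tmem176l.2 was lower. Of 36 tested enterocyte markers 10 fell and 0 rose, against a background of 0.422% lower and 0.133% higher, with a median log2 fold change of -0.59 against 0.01 over all genes. The count was 3 to 5 without any 1 of the 72 hpf libraries, and 19 lower and 1 higher when only the 6 libraries of that age were fitted. cldn15la, a claudin of gut epithelium, fell by 1.30 on the log2 scale (edgeR adjusted p = 3.76e-04), anpepb, a brush border aminopeptidase, by 1.22 (adjusted p = 6.97e-04) and cdx1b, an intestinal transcription factor, by 1.16 (adjusted p = 7.80e-04). cdx1b was also lower at 48 hpf, by 1.23 (edgeR adjusted p = 0.00946). At that age cldn15la and anpepb were not called (edgeR adjusted p = 0.264 and 0.0570). Of 18 markers of ileal and lysosome-rich enterocytes 3 fell and 0 rose: the bile acid binding gene fabp6 and the endocytic receptor genes lrp2b and amn. This count was 1 or 2 without any 1 of the 72 hpf libraries, 5 without any 1 of the wild-type 48 hpf libraries, and 9 in the fit of only the 6 libraries of 72 hpf.

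Summed levels of these lists overlapped between the genotypes at 72 hpf, at 3451 to 3967 against 3495 to 4059 CPM for enterocytes and 588 to 612 against 592 to 605 CPM for the ileal list. These sums too are led by their most abundant genes. In wild type the enterocyte sum was higher at 48 hpf, at 12874 to 18902 CPM. Yet 23 of the 36 enterocyte markers rose and 11 fell in the averaged age contrast, with a median of 2.37. Overlap of the sums therefore does not speak for most markers. No marker found in the table was at 0 in all libraries. The part of the gut markers in the level of tmem176l.2 was not tested.

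Beside tmem176l.3a at 48 hpf, 7 of 28 hepatocyte markers fell and 0 rose, against 2% lower and 1.04% higher over all genes, with a median of -0.30. They included cyp2ad3, the coagulation factor gene f10 and the urate oxidase gene uox, with log2 fold changes of -0.74, -1.01 and -1.43 (edgeR adjusted p = 0.00122, 0.00318 and 0.00797). The count was 2 to 4 without wild-type 48 hpf replicate 1 or any 1 mutant-labelled 48 hpf library, 13 without wild-type 48 hpf replicate 2, and 1 in the fit of only the 6 libraries of that age. Of the 36 enterocyte markers 4 fell and 0 rose at this age, and of 23 epidermis and ionocyte markers 2 fell and 1 rose. With 1 library left out, 0 to 2 of the latter list were lower (0 without mutant-labelled 48 hpf replicate 1, 1 without its replicate 2 or wild-type 48 hpf replicate 1). From 0 to 3 were higher: 3 without wild-type 48 hpf replicate 3, and 0 without wild-type 48 hpf replicate 1 or 2, mutant-labelled 48 hpf replicate 1 or 3, or wild-type 72 hpf replicate 1. With only the 6 libraries of 48 hpf 0 were called. Of 18 pronephros markers edgeR called 0 at either age, while unadjusted (p under 0.05) 2 were higher and 4 lower at 48 hpf and 4 lower at 72 hpf. DESeq2 called 1 of them lower at each age and limma-voom 0. The summed pronephros level overlapped at 48 hpf, at 209 to 234 CPM in wild-type and 192 to 213 CPM in mutant-labelled libraries. At 72 hpf the mutant-labelled libraries were lower without overlap, at 857 to 910 against 993 to 1076 CPM. This held for 9.14% of single tested genes. The list's median log2 fold change at 72 hpf was -0.13, with 12 of 18 below 0. Summed hepatocyte levels overlapped at 48 hpf, at 12654 to 24418 CPM in wild-type and 14333 to 20582 CPM in mutant-labelled libraries. At 72 hpf the mutant-labelled libraries were higher without overlap, at 7180 to 7901 against 5271 to 6977 CPM. This held for 11% of single tested genes. At that age 1 of the 28 hepatocyte markers rose and 0 fell, against 0.133% and 0.422% over all genes, with a median of 0.28. The riser was cyp2ad3 (log2 fold change 0.56, SE 0.10, edgeR adjusted p = 0.0148). Its call was lost in 5 of the 12 fits that left out a library. The summed level of the ileal list did not overlap at 48 hpf, at 405 to 425 against 339 to 365 CPM. Among single tested genes 9.08% were lower without overlap. Of its 18 markers edgeR called 1 lower (plac8.1) and 1 higher (mep1a.2), with a median log2 fold change of -0.13. With 1 library left out, 0 to 2 were lower and 0 or 1 higher. The part of these markers in the level of tmem176l.3a was not tested.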

How the data were processed

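Total RNA was extracted with TRIzol and sequenced by a standard Illumina procedure, per the labels' protocols. The authors deposited whole-number counts of reads per Ensembl gene with no normalization. GRCz11 is the build, and STAR, featureCounts and DESeq2 are the tools, listed in the submitters' processing notes, without versions or roles. Strandedness and annotation release are not given in these sources. Reads of overlapping or antisense genes, and of near-identical copies, therefore cannot be told apart with certainty.

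From these counts, filterByExpr kept the testable genes (minimum count 10), libraries were scaled by TMM, and all 12 libraries entered 1 edgeR 4.0.16 quasi-likelihood model in R 4.3.3 with a coefficient per group. The Benjamini-Hochberg adjustment ran over all 21068 tested genes, with a threshold of 0.05. Alternatives used DESeq2 1.42.0, limma 3.58.1 (voom), other scalings, no filter, a replicate block, and each library left out. The calling steps were also run on simulated data with the same spread for all genes and groups. That run does not show how they perform at the uneven spread given below. No pair of replicates held identical values, and each pair differed by more than sampling noise. The spread was uneven: chi-square per degree of freedom was 21.8 to 49.7 for pairs of wild-type 48 hpf libraries. It was 7.37 to 17.0 for mutant-labelled 48 hpf, 4.14 to 6.97 for wild-type 72 hpf and 6.85 to 8.21 for mutant-labelled 72 hpf pairs. The model gave all groups a shared estimate of the spread.

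The members, gene lists and tests were chosen with earlier results of these data known. Genes were named by a rule: all members, mycn, the 5 nearest patterns, the 3 annotated neighbours on each side, and up to 4 called genes per list and age. Not every gene so named is described. In RefSeq's table (GRCz12tu), used for names and order only, all 6 members were matched by symbol.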

Additional observations from a re-analysis of the deposited data

Results flagged for a closer look

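These results were flagged because the genotype effect differed between the ages in edgeR's test of that difference (72 minus 48 hpf, log2 scale, adjusted over all tested genes). None of them is a tmem176 gene: for the members, whose difference between ages was used to pick the family, no test was made. Only the annotated neighbours and the list genes named for a call at 48 or 72 hpf were looked at. A call at 1 age favours a difference from the other age, so these flags are a description only. Over all tested genes 0.47% were called for this difference. The annotated neighbour of tmem176, tcirg1a, had a difference of 1.06 (SE 0.20, adjusted p = 0.0262). Among hepatocyte markers that fell in mutant-labelled embryos at 48 hpf, the differences were 1.31 for cyp2ad3 (SE 0.14, adjusted p = 6.87e-04), 1.38 for f10 (SE 0.23, adjusted p = 0.0155), 1.85 for uox (SE 0.30, adjusted p = 0.0146) and 1.198 for hpda (SE 0.25, adjusted p = 0.0464). The gluconeogenesis gene pck1, on the enterocyte list, had a difference of 1.19 (SE 0.21, adjusted p = 0.0206), and the ionocyte carbonic anhydrase gene ca15a one of 1.18 (SE 0.24, adjusted p = 0.0443). In the other direction, mmp9 on the neutrophil list stood at -1.58 (SE 0.27, adjusted p = 0.0159), the peptidase gene dpp4 at -1.29 (SE 0.24, adjusted p = 0.0263) and the meprin gene mep1a.2 at -3.69 (SE 0.66, adjusted p = 0.0203). The last rested on few counts: 9 in wild-type and 41 in mutant-labelled libraries at 48 hpf, and 62 and 22 at 72 hpf. Its call at 48 hpf was lost in 4 of the 12 fits that left out a library. Groups of 3 were not put through an outlier test. These differences between the ages were not refitted under the processing alternatives or with single libraries left out.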

How the results depend on the processing

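The age effects of tmem176, tmem176l.2, tmem176l.3a, tmem176l.3b and tmem176l.4 kept their direction and their side of the threshold in every alternative run. That of tmem176l.1 did so except under library totals, where it was 0.066, and its side of the threshold changed. As above, the p-value of tmem176l.2 is not read as support, and that of tmem176l.3a not as a change in both genotypes. The genotype differences of tmem176l.3a at 48 hpf and tmem176l.2 at 72 hpf ran from -2.10 to -1.84 and from -1.83 to -1.58 with 1 library left out. At 48 hpf those of tmem176l.1, tmem176l.2, tmem176l.3b and tmem176l.4 moved by more than their SE in such fits. That of tmem176l.4 ran from -0.18 without wild-type 48 hpf replicate 1 to 0.09 without its replicate 3. The difference of tmem176l.2 at 48 hpf changed sign without wild-type 48 hpf replicate 3, as did some of those near 0. Called genes at 48 hpf (641) numbered 1063 with DESeq2, 297 with the replicate block and 74 with only the 6 libraries of the age, and 222 to 1133 with 1 library left out. At 72 hpf (117) they numbered 260, 48 and 793, 195 with limma-voom, and 24 to 195 with 1 library left out. Of all genes on the fixed lists 17 were called at 48 hpf, 9 with the replicate block, 2 with only the 6 libraries and 5 to 25 with 1 left out. At 72 hpf 14 were called, against 26 with DESeq2, 22 with limma-voom, 7 with the replicate block, 49 with only the 6 libraries and 4 to 21 with 1 left out. The causes were not tested. Same-numbered libraries of the genotypes deviated together with correlations of -0.15 to 0.02, and other-numbered ones with -0.08 to 0.16. This gives no sign that the numbers pair the samples, but with 3 libraries a group it cannot exclude pairing. tmem176l.2 at 48 hpf, at 3 to 19 counts a library, is the member limited by depth.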
